A study of Capra hircus with 3 samples.

Results

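The 10 transcripts described here are protein-coding messages of the goat mitochondrial genome. They were chosen by symbol alone: ND1, ND2, ND3, ND4, ND5, COX1, COX2, COX3, CYTB and ATP6, 10 of the 27271 genes counted. Each symbol matched 1 gene in every library, with identifiers from ENSCHIG00000000006 for ND1 to ENSCHIG00000000035 for CYTB. The 3 other mitochondrially encoded protein genes, ND4L, ND6 and ATP8, were not part of the choice. Liver cells came from 15 female goats aged 3 to 4 years. Con goats were healthy and ate the LRDS diet, NASH goats had non-alcoholic steatohepatitis and ate the HRDS diet, and NASH-T goats, the tolerance group for that disease, ate the HRDS diet too. The 5 livers of each group were digested with trypsin, pooled and made into 1 library of polyadenylated RNA, read as unique molecular identifiers (UMIs) near the 3′ end. Group, pool and handling therefore coincide, there is no replicate, and no difference between libraries carries a test.

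Mitochondrial DNA is transcribed from both strands as long precursors, which are cut into separate messages mostly at the tRNAs between the genes, so the messages of a strand start from common transcription. Their later levels also depend on how stable each message is. The encoded proteins are the hydrophobic cores of respiratory complexes, whose other subunits come from nuclear genes. Parenchymal liver cells are known for many mitochondria, which carry out fatty acid oxidation, the urea cycle and oxidative phosphorylation. By RefSeq's order (assembly ARS1.2, used for names and order only), the genes run ND1, ND2, COX1, COX2, ATP8, ATP6, COX3, ND3, ND4L, ND4, ND5, ND6 and CYTB. Neighbours that overlap or share a precursor (ATP8 with ATP6, ATP6 with COX3, ND4L with ND4) may have shared reads, and in the sources used here the authors' counting of such reads is not given.

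The cells kept numbered 7200 in Con, 8389 in NASH and 8914 in NASH-T, with 23752171, 29059323 and 27005297 UMIs. Values in threes below keep that order. The libraries had 20 to 23 barcodes in common between any 2 of them. Cells were grouped by genes other than the mitochondrially encoded ones, and groups were named from marker genes with the suffix "-like". The names rest on leading genes such as CPS1 for hepatocyte-like, MSR1, VSIG4 and TIMD4 for macrophage-like, THEMIS and BCL11B for T cell-like, STAB2 and VWF for endothelial-like, RELN and HGF for mesenchymal-like, and PAX5 and BANK1 for B cell-like cells. A T or NK-like cluster held markers of both lineages. These 7 classes had at least 50 cells in every library. Messages of 22 hepatocyte marker genes summed to 27667, 31308 and 33746 CPM (gene UMIs divided by all UMIs of the class, on a fixed scale) in hepatocyte-like cells and still to 5244, 5921 and 6233 CPM in T cell-like cells. ALB, which encodes albumin, stood at 3812, 4328 and 5188 CPM in hepatocyte-like cells and at 1955, 2058 and 2667 CPM in T cell-like cells.

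1 hepatocyte-like cell of the Con library stood apart. It held 35573 UMIs, of which 2139 came from the 10 transcripts, or 15.6% of all such UMIs in Con hepatocyte-like cells. It lay in a shallow hepatocyte-like cluster (410, 279 and 475 cells, whose median depth was 1181.5, 892 and 1115 UMIs), and it held 57.7% of that cluster's UMIs of the 10 transcripts in Con. The highest such cell held 6.08% of the class's UMIs of these transcripts in NASH and 5.54% in NASH-T. The main values of hepatocyte-like cells are therefore given again without the highest cell of each library. In NASH, 1518 and 1264 hepatocyte-like cells also lay in a pair of clusters that held 5 and 11 cells of Con and 38 and 47 of NASH-T.

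The 10 transcripts gave a small part of all UMIs, and the part differed widely by cell type. Over all kept cells they gave 37943, 38043 and 81698 UMIs, or 0.160%, 0.131% and 0.303% of the total. With all 13 mitochondrially encoded protein genes counted, no cell exceeded 20%, and the highest cells reached 8.86%, 9.52% and 16.7%. For the 10 transcripts, hepatocyte-like cells had the lowest share of the 7 classes in each library, at 0.0973%, 0.0566% and 0.0938%. Without the highest cell of each library these shares were 0.0824%, 0.0533% and 0.0887%. Macrophage-like cells followed at 0.129%, 0.178% and 0.189%, mesenchymal-like cells at 0.213%, 0.211% and 0.237%, and endothelial-like cells at 0.323%, 0.308% and 0.413%.

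The lymphoid classes had the highest shares. T cell-like cells reached 0.469% (95% exact binomial interval 0.459% to 0.478%), 0.631% (0.619% to 0.644%) and 1.24% (1.23% to 1.25%). T or NK-like cells reached 0.472% (0.452% to 0.493%), 0.774% (0.739% to 0.811%) and 1.25% (1.22% to 1.28%). B cell-like cells reached 0.519% (0.488% to 0.551%), 0.622% (0.580% to 0.666%) and 1.2% (1.16% to 1.24%). All intervals cover counting error only. The order of the 4 classes below the lymphoid ones was the same in each library, with intervals that did not overlap. Among the 3 lymphoid classes, ordered T cell-like, T or NK-like, B cell-like in Con and B cell-like, T cell-like, T or NK-like in NASH and NASH-T, each pair of neighbours had overlapping intervals except T cell-like and T or NK-like cells in NASH. The share in T cell-like cells was 4.82, 11.1 and 13.2 times that in hepatocyte-like cells.

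**Figure D1:**
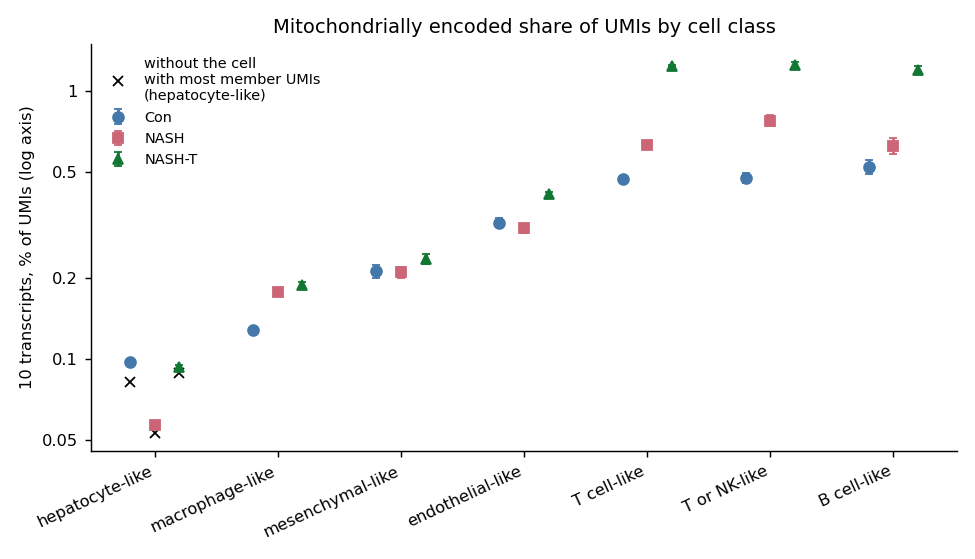
Share of all UMIs that came from the 10 mitochondrially encoded transcripts (percent, log axis) in 7 cell classes of the Con, NASH and NASH-T libraries. Points are pooled shares, bars are exact 95% binomial intervals and crosses mark hepatocyte-like cells without the highest cell of the library. Hepatocyte-like cells sit lowest and the T cell-like, T or NK-like and B cell-like classes highest, with NASH-T at 1.2% to 1.25% in those 3.

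Other measures differed between the classes together with this share. Lymphoid classes were shallower: the median was 1175, 1027 and 1203.5 UMIs in T cell-like cells and 4200, 3866 and 4035 in hepatocyte-like cells. Across the 21 combinations of class and library, Pearson's r of the log2 share was -0.88 with the log2 median UMIs per cell and 0.86 with the log2 summed CPM of 30 ribosomal protein genes. It was 0.54 with 52 nuclear-encoded respiratory genes and -0.11 with ALB. These points share 3 libraries, and the values are a description only. With each cell thinned to 1000 UMIs, after leaving out 177, 205 and 199 hepatocyte-like and 543, 683 and 701 T cell-like cells that were shallower, a hepatocyte-like cell held a mean of 1.00, 0.627 and 1.03 UMIs of the 10 transcripts and a T cell-like cell 4.51, 5.83 and 11.5. The classes thus kept their order at equal depth. The nuclear-encoded respiratory genes did not show the same spread. They summed to 1189, 1121 and 1145 CPM in hepatocyte-like cells and to 1317, 1258 and 1325 CPM in T cell-like cells.

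Within a class the share varied strongly from cell to cell. The median T cell-like cell had 0.230%, 0.311% and 0.895%, and the upper quartile stood at 0.561%, 0.972% and 2.11%. The median hepatocyte-like cell had 0.0657%, 0.0380% and 0.0631%, with upper quartiles of 0.121%, 0.0839% and 0.126%. A minority of T cell-like cells thus held most of the UMIs. Cells above 1% made up 14.8%, 24.3% and 47.3% of T cell-like cells and held 55.3%, 66.3% and 84.0% of their UMIs of the 10 transcripts. Among hepatocyte-like cells they made up 0.698%, 0.320% and 1.03%. At least 1 UMI of the 10 transcripts was seen in 90.0%, 78.2% and 88.6% of hepatocyte-like cells and in 85.6%, 83.4% and 94.0% of T cell-like cells. After thinning these figures were 51.8%, 37.5% and 51.0% against 79.7%, 81.1% and 91.2%. Every one of these cell types has mitochondria, so no class serves as a background for free RNA here.

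**Figure D2:**
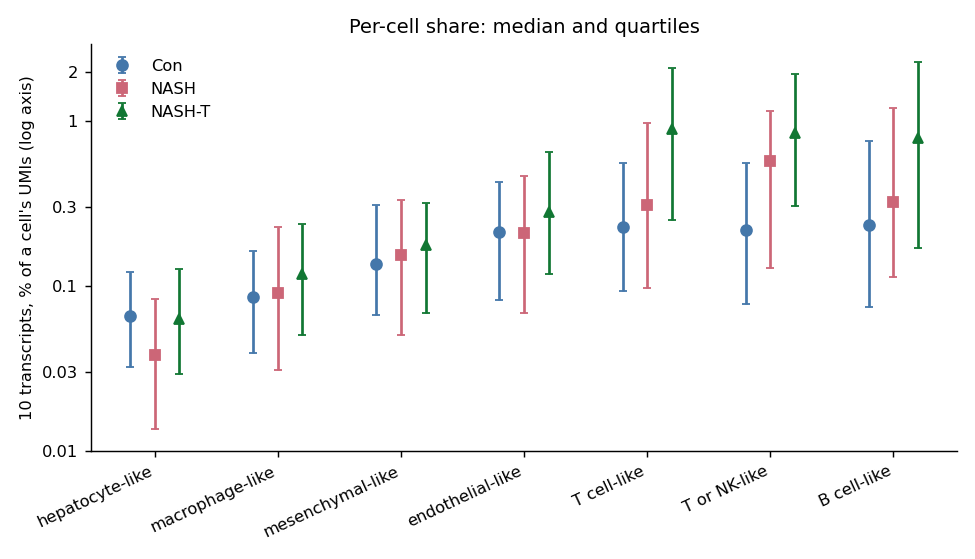
Share of a cell's UMIs from the 10 transcripts (percent, log axis), as the median (point) and quartiles (bar) over cells, by class and library. The T cell-like median moves from 0.230% in Con to 0.895% in NASH-T, while the hepatocyte-like median is 0.0657%, 0.0380% and 0.0631%.

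The make-up of the 10 transcripts can be read without the nuclear-encoded total. UMIs count molecules and were not divided by transcript length, so the order below is that of counted UMIs and depends on how each message is captured. Cytochrome c oxidase, complex IV, dominated in each class. COX1, which holds the haem groups and the site where oxygen is reduced, gave 23.5% to 33.6% of the 10, and COX3, a structural core subunit, 23.4% to 29.1%. They were the highest pair in all 21 combinations of class and library, with COX1 first in 13 and COX3 first in 8, among these T cell-like cells of NASH and NASH-T. COX2, which takes electrons from cytochrome c, gave 10.6% to 16.9%. Complex IV as a whole gave 70.3%, 71.4% and 69.7% in hepatocyte-like and 62.8%, 61.5% and 62.0% in T cell-like cells. Without the highest cell of each library it gave 71.1%, 71.6% and 69.4% in hepatocyte-like cells.

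The complex I messages encode parts of its membrane arm, where NADH oxidation is coupled to proton pumping. ND4 gave 6.07% to 9.34% of the UMIs and ND2 5.76% to 11.8%, and both encode antiporter-like pumping subunits. ND1, next to the quinone site, gave 4.38% to 6.57%, and ND3, a small subunit near the same site, 1.61% to 5.59%. ND5, another pumping subunit, gave 0.990% to 3.46%. Together the 5 messages gave 22.0%, 20.3% and 22.9% in hepatocyte-like and 29.6%, 30.7% and 30.9% in T cell-like cells, with intervals that do not overlap between the classes. Without the highest cells the hepatocyte-like values were 21.1%, 20.3% and 23.1%. CYTB, the haem-carrying and sole mitochondrially encoded subunit of complex III, gave 5.54% to 10.0%, with its highest values in endothelial-like cells at 9.27%, 10.0% and 9.63%. ATP6, which forms the proton path of ATP synthase (complex V), gave 0.375% to 1.66%.

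**Figure D3:**
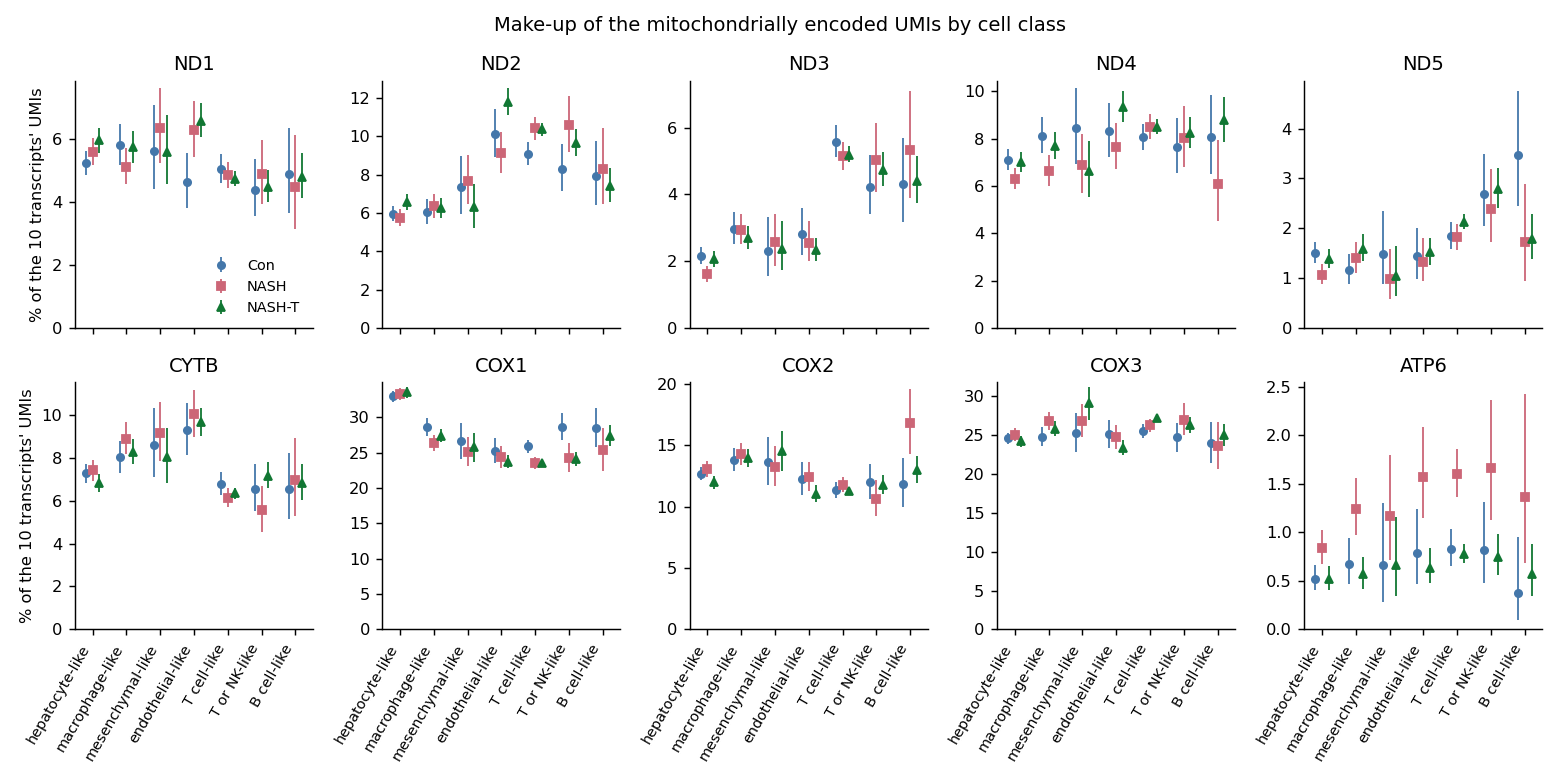
Percent of the UMIs of the 10 transcripts given by each one, in 7 classes and 3 libraries, 1 panel per transcript. Points are percentages and bars are exact 95% binomial intervals. ND3 gives 5.59%, 5.14% and 5.19% in T cell-like cells against 2.17%, 1.61% and 2.06% in hepatocyte-like cells, COX1 is highest in hepatocyte-like cells (33.0%, 33.3% and 33.6%), and the NASH point is the highest of the 3 for ATP6 in all 7 classes.

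ND3 against COX1 had the widest spread over cell classes among the 45 pairs of transcripts. In hepatocyte-like cells there were 0.0658, 0.0484 and 0.0613 ND3 UMIs per COX1 UMI, and 0.0707, 0.0479 and 0.0623 without the highest cells. There were 0.216 (0.196 to 0.237), 0.219 (0.199 to 0.240) and 0.221 (0.210 to 0.233) in T cell-like cells. The ratio thus differed more than 1.5-fold between these classes in every library and was close among the 3 libraries of T cell-like cells. The next pairs also held ND3: ND1 to ND3 stood at 2.41, 3.46 and 2.89 in hepatocyte-like cells (2.12, 3.47 and 2.83 without the highest cells) and at 0.902, 0.942 and 0.911 in T cell-like cells. ND3 to CYTB stood at 0.823, 0.839 and 0.820 in T cell-like cells and at 0.305, 0.255 and 0.243 in endothelial-like cells. ND3 gave 2.17%, 1.61% and 2.06% of the 10 in hepatocyte-like cells, 2.83%, 2.56% and 2.34% in endothelial-like cells and 5.59%, 5.14% and 5.19% in T cell-like cells.

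The make-up also moved with a cell's own share in T cell-like cells. Taking all libraries, COX1 gave 34.2% (30.01% to 38.6%) of the 10 in the 997 T cell-like cells below 0.1%, 28.5% and 24.8% in the bins of 0.1% to 0.3% and 0.3% to 1%, and 23.3% (22.8% to 23.7%) in the 1511 cells above 1%. ND3 ran the other way, from 2.06% (0.993% to 3.76%) to 5.42% (5.20% to 5.64%). In hepatocyte-like cells COX1 ran from 33.8% to 31.9% and ND3 from 2.18% to 1.71% over the same bins. The lowest bin of T cell-like cells was thus near hepatocyte-like cells in both transcripts, on only 485 UMIs. In macrophage-like cells COX1 ran from 31.9% to 24.4% and ND3 from 2.41% to 2.93%. Other genes differed over the T cell-like bins as well: the 30 ribosomal protein genes summed to 2182 CPM in the lowest and 3539 CPM in the highest, ALB stood at 1942 and 2725 CPM, and the nuclear respiratory genes at 1217 and 1364 CPM. The bins mix the libraries: of the 1511 T cell-like cells above 1%, 226 were from Con, 348 from NASH and 937 from NASH-T. Over the whole T cell-like class, the ribosomal protein genes stood at 2450, 2285 and 3206 CPM and ALB at 1955, 2058 and 2667 CPM. The parts of the mix of libraries and of RNA from other cells in these differences were not tested.

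**Figure D4:**
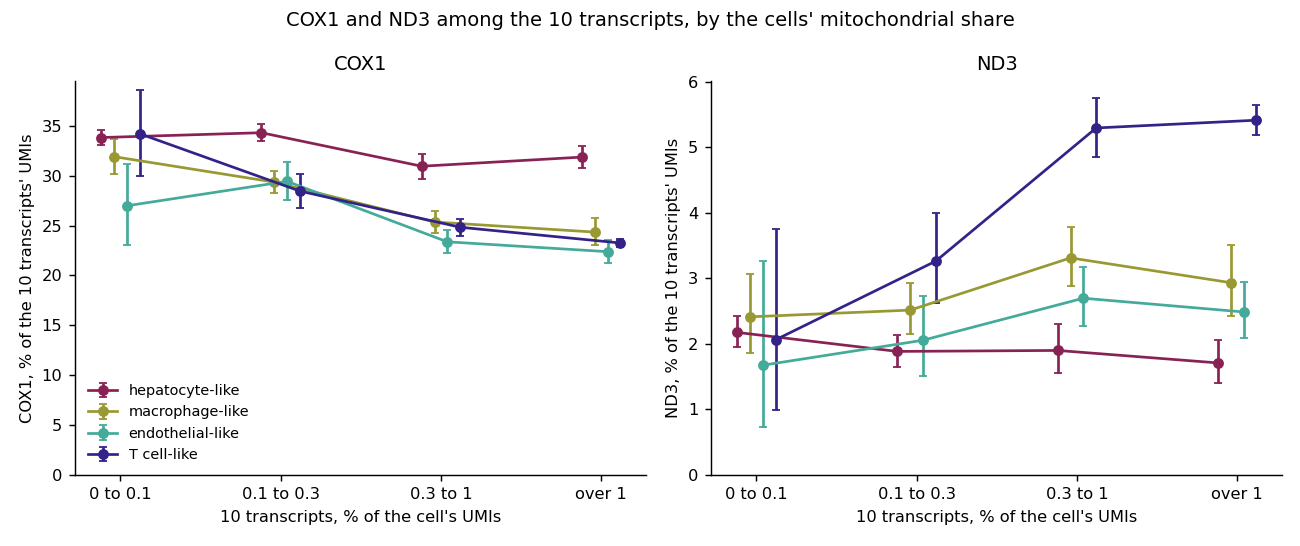
Percent of the 10 transcripts' UMIs given by COX1 and by ND3 in cells binned by their own share of UMIs from the 10 transcripts (below 0.1%, 0.1% to 0.3%, 0.3% to 1%, above 1%), over all libraries, with exact 95% binomial intervals. In T cell-like cells COX1 runs from 34.2% to 23.3% and ND3 from 2.06% to 5.42%. In hepatocyte-like cells, with the highest cell of each library included, COX1 runs from 33.8% to 31.9%.

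Hepatocyte-like cells of the NASH library had fewer UMIs of these transcripts than those of Con. Among complex I messages, ND1 stood at 50.8, 31.6 and 55.8 CPM, ND2 at 57.9, 32.6 and 61.6, and ND4 at 69.1, 35.7 and 65.6. ND3 stood at 21.1, 9.13 and 19.3 CPM and ND5 at 14.7, 6.06 and 12.99. NASH was the lowest library for all 5. CYTB of complex III stood at 70.7, 41.9 and 64.0 CPM. Of complex IV, COX1 stood at 321, 189 and 315 CPM, COX2 at 124, 74.1 and 113, and COX3 at 239, 142 and 227. These 4 were likewise lowest in NASH, whereas ATP6 stood at 5.10, 4.74 and 4.86 CPM, with intervals that overlap between all libraries. Without the highest cell of each library COX1 stood at 274, 180 and 297 CPM, COX3 at 205, 133 and 215, ND4 at 54.0, 34.1 and 63.3, ND3 at 19.4, 8.65 and 18.5, and ATP6 at 4.54, 4.50 and 4.60. NASH was still the lowest library for COX1, COX3, ND4 and ND3.

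The summed share in hepatocyte-like cells was 1.72-fold lower in NASH than in Con, at a ratio of 0.582 (exact conditional interval 0.568 to 0.597). A transcript was called where the ratio was at least 1.5 in either direction, its interval excluded 1 and both libraries together had at least 20 UMIs. By that rule 9 of the 10 were lower in NASH than in Con, against 11.2% of all genes measured in the class, with ratios from 0.413 (ND5) to 0.622 (ND1). ATP6 had a ratio of 0.930 (0.677 to 1.28). The median gene of the class was itself lower by 0.12 on the log2 scale in NASH, and by 0.10 in NASH-T, than in Con. Relative to it (median-of-ratios size factors) the summed ratio of NASH to Con was 0.634, and 8 transcripts were called lower.

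The highest cells weighed on this count. Without the highest cell of each library the ratio of NASH to Con was 0.647 (0.630 to 0.664), and 8 of the 10 were called lower, all but ND1 (0.731) and ATP6 (0.990). Leaving out instead the hepatocyte-like cells above 5%, 1 of Con and 1 of NASH-T, which keeps the highest NASH cell at 1.85%, the shares were 0.0824%, 0.0566% and 0.0887%, and the ratio of NASH to Con was 0.688 (0.670 to 0.706). Then 3 of the 10 were called lower: ND3 by 2.12-fold, ND5 by 1.92-fold and ND4 by 1.51-fold. ND1, ND2, CYTB and the 3 COX messages lay between 0.688 and 0.768, and ATP6 at 1.04 (0.752 to 1.46). Without the whole shallow cluster the shares were 0.0745%, 0.0502% and 0.0721%, the ratio was 0.674 and 4 were called, against 10.7% of genes lower. No such share of genes was computed for the other exclusions. Inside the shallow cluster, without the highest cell of each library, Con and NASH were at 0.253% (0.240% to 0.265%) and 0.243% (0.226% to 0.261%), which overlap, and NASH-T was at 0.457%. In the pair of large clusters present in all libraries the ratios of NASH to Con were 0.671 (0.638 to 0.706) and 0.680 (0.626 to 0.739). The pair of clusters made up nearly only of NASH cells had 0.0492% and 0.0513%, and the NASH cells of the large ones 0.0515% and 0.0487%.

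The difference was present at each depth. In 3 bins of depth set over all hepatocyte-like cells, without cells above 5%, Con had 0.145%, 0.0881% and 0.0665% from the shallowest to the deepest bin. NASH had 0.0954%, 0.0559% and 0.0475%, ratios of 0.659, 0.635 and 0.714. Deeper cells thus had smaller shares in both libraries, and NASH was below Con in each bin. Hepatocyte-like cells of NASH and NASH-T differed in the other direction: the summed share was 1.66-fold (1.62 to 1.70) higher in NASH-T and 9 transcripts were called, against 7.87% of genes. The ratios ran from 1.52 for COX2 to 2.14 for ND5, and ATP6 had 1.02 (0.744 to 1.41). Without the highest cells the ratio was 1.67 and 9 were called. Without cells above 5% 7 were called, and 5 without the shallow cluster, in the latter case against 7.1% of genes higher.

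NASH-T and Con hepatocyte-like cells were close. The ratio was 0.965 (0.942 to 0.988), but it was 1.03 with size factors, 1.05 after thinning, 1.11 as a mean over cells and 1.08 both without the highest cells and without cells above 5%, so its direction depended on the processing. None of the 10 was called in either direction, against 4.51% of genes higher and 8.07% lower. ND1 had the highest ratio, 1.10 (0.994 to 1.22), and ND5 the lowest, 0.886 (0.725 to 1.08). Within NASH-T hepatocyte-like cells ribosomal protein genes stood at 1737 CPM, against 1423 in Con and 1132 in NASH. Of 16 measured genes of the dissociation and stress list, 4 were higher in NASH-T than in Con, among them FOS (6.59, 4.74 and 21.6 CPM) and DUSP1 (34.2, 28.6 and 94.5 CPM). The part of such handling in the mitochondrial values was not tested.

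T cell-like cells had their highest levels in NASH-T for 9 of the 10. ND1 stood at 236, 306 and 587 CPM, ND2 at 426, 658 and 1286, and ND3 at 262, 325 and 645. ND4 stood at 378, 536 and 1056 CPM and ND5 at 86.2, 115 and 265. All 5 complex I messages were thus lowest in Con and highest in NASH-T. CYTB stood at 318, 387 and 786 CPM. COX1 stood at 1214, 1484 and 2916 CPM, COX2 at 531, 745 and 1401, and COX3 at 1197, 1657 and 3373. They had the same order of libraries, while ATP6 at 38.8, 101 and 96.2 CPM was about as high in NASH as in NASH-T.

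The summed share of T cell-like cells was 2.65-fold (2.59 to 2.71) higher in NASH-T than in Con. All 10 transcripts were called higher, against 3.71% of genes, with ratios from 2.40 (2.29 to 2.52) for COX1 to 3.07 (2.59 to 3.65) for ND5. NASH-T against NASH gave 1.97 (1.92 to 2.01) with 9 called, against 4.38% of genes, and ATP6 at 0.953 (0.781 to 1.17). NASH against Con gave 1.35 (1.31 to 1.39), and 2 transcripts were called higher, against 3.55% of genes: ND2 at 1.55 (1.41 to 1.69) and ATP6 at 2.60 (1.97 to 3.46). The other 8 lay between 1.22 and 1.42.

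The difference of NASH-T from Con was found in each of the 5 T cell-like clusters, at 1.96 to 2.74, and in each of 3 bins of depth, at 3.46, 2.51 and 2.5. It was present along the distribution over cells: the lower quartile of the share per cell was 0.0935% in Con and 0.253% in NASH-T, beside the medians and upper quartiles given above. Without cells above 5% the ratio was 2.41. Without cells above 1%, which lowers the ratio by construction, it was 1.43 and 4 transcripts were called. In the same cells ribosomal protein genes stood at 2450, 2285 and 3206 CPM, the 22 hepatocyte marker genes at 5244, 5921 and 6233 CPM and ALB at 1955, 2058 and 2667 CPM. Of the stress list 1 of 12 measured genes was higher and 1 lower in NASH-T than in Con. Of all genes measured in the class 3.71% were higher and 3.56% lower. The part of the ribosomal, hepatocyte and stress genes in the mitochondrial difference was not tested.

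T or NK-like cells had ratios of 1.64 (1.54 to 1.75) for NASH to Con with 6 transcripts higher, against 4.7% of genes, and 2.64 (2.52 to 2.78) for NASH-T to Con with 10 higher, against 4.16%. Leaving out cells above 1%, the latter was 1.40 with 3 higher. NASH-T to NASH was 1.61 (1.53 to 1.70) with 7 higher, against 3.82%. Over 13 alternative ways of processing, this last ratio ran from 1.07 to 1.68. B cell-like cells had 2.31 (2.16 to 2.48) for NASH-T to Con with 9 higher, against 4.63% of genes, and 1.14 (1.00 to 1.31) with 0 higher once cells above 1% were left out. Their NASH-T to NASH ratio was 1.93 (1.78 to 2.08) with 8 higher, against 5.1%, and it was 0.872 without cells above 1%. For NASH to Con it was 1.2 (1.09 to 1.31) with COX2 alone higher of 9 measured, against 3.59%, and it was 0.971 under a stricter filter of 500 genes and 1000 UMIs and 0.956 after thinning.

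Macrophage-like cells, which include the resident cells of the sinusoids, had 1.39 (1.34 to 1.44) for NASH to Con and 1.47 (1.42 to 1.53) for NASH-T to Con. In 3 depth bins, from the shallowest to the deepest, NASH to Con was 1.60, 1.27 and 1.09 (1.02 to 1.16). NASH-T to Con was 1.93 in the shallowest bin and 1.30 in the deepest. The part of depth in these ratios was not tested. A cluster of 187, 24 and 91 macrophage-like cells had shares of 0.143%, 0.147% and 0.0886%, so NASH-T was lowest there. The other clusters of the class had NASH-T to Con ratios of 1.47 and 2.61. Over the whole class COX1 stood at 368, 471 and 519 CPM and COX3 at 318, 478 and 489. Higher in NASH than in Con were ATP6 at 2.55, ND5 at 1.67, CYTB at 1.54 and COX3 at 1.5, 4 of 10 against 3.82% of genes. Higher in NASH-T than in Con were ND5 at 2.02, COX3 at 1.54, ND2 at 1.52 and CYTB at 1.52, against 3.4%. Between NASH-T and NASH the ratio was 1.06 (1.03 to 1.10), and ATP6 alone was called, lower at 0.483 (0.328 to 0.706), against 5.59% of genes lower. The summed NASH-T to NASH ratio was 1.21, 1.19 and 1.19 from the shallowest to the deepest bin. It was 1.12 and 1.40 in the other clusters, whereas NASH-T was below NASH in the cluster of 187, 24 and 91 cells. Of the stress list 7 of 13 measured genes were higher in NASH-T than in Con macrophage-like cells.

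Endothelial-like cells had 0.953 (0.902 to 1.01) for NASH to Con, with ATP6 alone called, higher at 1.91 (1.08 to 3.49), against 3.93% of genes. In the deepest of 3 depth bins the same ratio was 0.648 (0.591 to 0.712) and in the shallowest 1.17 (1.06 to 1.31). The larger endothelial-like cluster had shares of 0.377%, 0.335% and 0.454%, and the smaller 0.134%, 0.139% and 0.156%. Their NASH to Con ratios were 0.889 (0.839 to 0.941) and 1.04 (0.849 to 1.27). Over the whole class NASH-T to Con was 1.28 (1.22 to 1.34), with ND1 alone called at 1.82 (1.48 to 2.26), against 5.04%. NASH-T to NASH was 1.34 (1.29 to 1.40), with ND2, ND4 and ND5 higher, against 4.91%, and ATP6 lower at 0.545 (0.359 to 0.828), against 3.98%. These values depended on which cells were named endothelial-like. When the libraries were clustered separately the class held 444, 77 and 1016 cells in place of 363, 546 and 1017, NASH-T to Con was 1.94 (1.86 to 2.03) with 9 higher, and NASH-T to NASH was 2.99 (2.58 to 3.47) with 8 higher. The share of all genes called was not computed for that clustering, so these 2 counts have nothing to stand against. Mesenchymal-like cells had 0.991 (0.920 to 1.07) for NASH to Con, 1.11 (1.03 to 1.2) for NASH-T to Con and 1.12 (1.05 to 1.2) for NASH-T to NASH. No transcript was called in them, against 7.39%, 4.53% and 4.3% of genes higher and 5%, 4.68% and 7.04% lower in these comparisons, and they had as few as 8 ATP6 UMIs. Their clusters differed: NASH to Con was 0.905 (0.835 to 0.982) in the larger and 1.43 (1.19 to 1.72) in the smaller. For NASH-T to Con these were 1.05 (0.969 to 1.14) and 1.33 (1.10 to 1.60). For NASH-T to NASH they were 1.16 (1.08 to 1.25) and 0.929 (0.777 to 1.11).

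**Figure D5:**
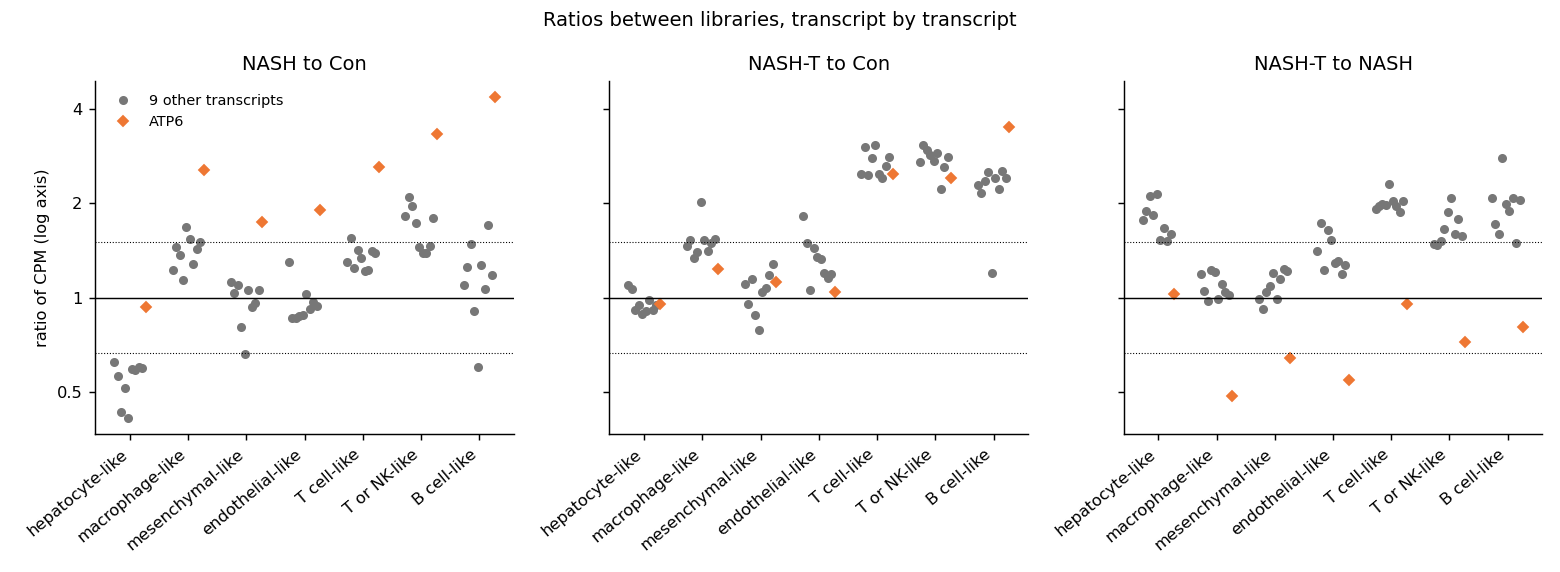
Ratios between libraries of each transcript's CPM (log axis) in 7 classes, 1 panel per comparison, with 9 transcripts in grey and ATP6 as an orange diamond. Dotted lines mark 1.5-fold in either direction. In T cell-like cells all 10 lie above the line for NASH-T to Con (2.40 to 3.07), in hepatocyte-like cells 9 lie below it for NASH to Con, and ATP6 in T cell-like cells lies apart from the other 9 in both comparisons that involve NASH.

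ATP6 had a pattern of its own over the libraries. Over all cells it gave 251, 483 and 538 UMIs, or 0.662% (0.582% to 0.748%), 1.27% (1.16% to 1.39%) and 0.659% (0.604% to 0.716%) of the 10. Its percentage was highest in NASH in 7 of 7 classes, and in 3 of them the NASH interval lay apart from both others. It was 0.827%, 1.60% and 0.775% in T cell-like cells, in macrophage-like cells 0.677%, 1.24% and 0.566%, and in hepatocyte-like cells 0.524%, 0.837% and 0.518%. Without the highest cells the hepatocyte-like values were 0.552% (0.425% to 0.704%), 0.844% (0.679% to 1.04%) and 0.518%, and the NASH and Con intervals then overlapped. In the shallow hepatocyte-like cluster it was 0.593%, 0.553% and 0.427%, so NASH was not highest there, on 22, 8 and 16 UMIs. The pairs with the widest spread over libraries therefore all held ATP6. Averaged over the 7 classes on the log2 scale, ND5 to ATP6 stood at 2.81, 1.12 and 2.65, ND4 to ATP6 at 12.3, 5.39 and 12.6, and COX1 to ATP6 at 43.4, 19.7 and 41.5. The part of reads shared with its overlapping neighbours was not tested.

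Of the nuclear-encoded partners, 1 was called over the comparisons of hepatocyte-like cells and 4 in T cell-like cells of NASH-T against NASH. In hepatocyte-like cells of NASH against Con, 0 of 30 measured complex I subunits were called, against 5.16% of genes higher and 11.2% lower, with a median log2 ratio of -0.15 beside -0.12 for all genes. None of the 3, 6, 6 and 7 measured nuclear subunits of complexes II, III, IV and V was called either, with medians of 0.06, -0.07, -0.13 and -0.27. In NASH-T against Con NDUFB2, a small complex I subunit, was higher (3.75 against 5.86 CPM, ratio 1.56), the 1 call among the 5 lists, against 4.51% of genes higher and 8.07% lower. In NASH-T against NASH none was called, against 7.87% higher and 5.03% lower. In T cell-like cells of NASH-T against Con, 0 of 30 complex I subunits were called, with a median of 0.06 beside -0.01, and UQCRC1 of complex III was lower, against 3.71% of genes higher and 3.56% lower. In NASH-T against NASH, 3 of 30 complex I subunits were higher, NDUFB8 at 1.53 (1.08 to 2.20), NDUFS5 at 1.72 (1.11 to 2.72) and NDUFS6 at 1.96 (1.25 to 3.18), and 1 of 5 complex IV subunits, COX6B1 at 1.84 (1.14 to 3.06), against 4.38% of genes higher and 3.44% lower. The median of the complex I list was 0.05 there, beside -0.02 for all genes. In NASH against Con, NDUFB10 was higher and NDUFS6 lower (30.1 against 15.7 CPM), against 3.55% of genes higher and 3.74% lower. The mitochondrial messages per nuclear respiratory message stood at 0.818, 0.505 and 0.819 in hepatocyte-like cells (0.697, 0.478 and 0.777 without the highest cells) and at 3.56, 5.02 and 9.37 in T cell-like cells.

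Of 14 genes for mitochondrial transcription and DNA copying in hepatocyte-like cells, MGME1, a mitochondrial DNA exonuclease, was lower in NASH than in Con (2.34 against 1.06 CPM), and MGME1 and TWNK, the replicative helicase, were lower in NASH-T than in Con, and TWNK was lower in NASH-T than in NASH, against 11.2%, 8.07% and 5.03% of genes lower. Their UMI counts were small, at 33, 21 and 16 for MGME1. TFAM, which packages the DNA and starts transcription, had a ratio of 1.14 (0.953 to 1.36) for NASH to Con and was not called. Of 18 RNA processing and decay genes 1 was higher and 1 lower in NASH than in Con. REXO2, an exonuclease that degrades short RNA pieces in mitochondria, stood at 63.0, 142 and 79.6 CPM, 2.25-fold (2.09 to 2.43) higher in NASH than in Con, against 5.16% of genes higher, and 1.79-fold lower in NASH-T than in NASH, against 5.03% lower. TBRG4, a regulator of mitochondrial messages, was 1.51-fold lower in NASH than in Con (7.86 against 5.20 CPM), against 11.2% of genes lower. ELAC2, which cuts tRNA 3′ ends from the precursor, was 2.17-fold (1.15 to 4.23) higher in NASH-T than in NASH on 28 and 17 UMIs, against 7.87% of genes higher. Among 18 genes, 1 call in a direction is no result about the list.

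Each remaining list of mitochondrial genes held 0 or 1 call in a comparison of hepatocyte-like cells, and with 10 to 12 genes a list, 1 call is no result about the list. Of 11 biogenesis regulators PPRC1, a coactivator, was lower in NASH than in Con by 1.82-fold (9.28 against 5.10 CPM), where 11.2% of genes were lower. None of 12 translation factors was called in any of the 3 comparisons. Of 11 mitophagy and dynamics genes BNIP3 was higher in NASH-T than in Con at 1.79 (1.01 to 3.24), where 4.51% of genes were higher. Of 10 chaperones and proteases GRPEL1, a cochaperone of protein import, was lower in NASH-T than in Con at 0.429 (0.243 to 0.734) and than in NASH at 0.486 (0.280 to 0.815), where 8.07% and 5.03% of genes were lower. In T cell-like cells of NASH-T against Con, 0 of 10 transcription and copying genes, 1 of 14 processing genes (lower), 0 of 10 translation factors, 1 of 10 biogenesis regulators (higher), 0 of 10 mitophagy genes and 0 of 9 chaperones were called, against 3.71% of genes higher and 3.56% lower.

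Across the 21 combinations of class and library, r of each of the 10 transcripts with their sum ran from 0.92 for ATP6 to 0.998 for COX3. Each transcript is part of that sum, COX3 a large part and ATP6 a small one. High values and their order are therefore partly built in and are a description only. Among 10468 nuclear genes ranked by r with the sum over the same points, which share 3 libraries, the highest were GABARAPL2 (0.94), YWHAZ (0.92), CCNG2 (0.92), BDP1 (0.92) and STIM2 (0.92). GABARAPL2 had a median of 17.8 CPM over the libraries in hepatocyte-like and 76.1 in T cell-like cells. The lowest were ABCC5 (-0.93), DEPTOR (-0.92), NUDT13 (-0.92), SMURF1 (-0.91) and CYP27A1 (-0.90), a mitochondrial enzyme of bile acid synthesis, at 207 CPM in hepatocyte-like and 7.23 in T cell-like cells. These genes differ mostly between hepatocyte-like and lymphoid cells.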

How the data were processed

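Single-cell RNA sequencing of pooled goat liver gave 3 libraries, Con, NASH and NASH-T, of 5 livers each. Per the labels' protocols, dissociation of minced liver took 40 min in 0.25% trypsin (37 °C), cells being harvested at 20 min intervals, strained at 40 µm and cleared of red cells by lysis. The submitters' processing notes name Cell Ranger 7.0.0. The authors deposited raw UMI counts for each gene in each barcode. In the sources used here the genome build is not given. Deposited matrices held 7485, 8731 and 9375 barcodes with at least 500 UMIs each.

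Barcodes with at least 200 genes and 500 UMIs were kept, and Scrublet (expected rate 0.06) removed 284, 342 and 459 doublets. No upper limit was set on the mitochondrial share, since it is the outcome. Cells were clustered with scanpy 1.11.5, anndata 0.12.19, numpy 2.4.6, scipy 1.17.1, pandas 2.3.3, scikit-learn 1.9.0 and igraph 0.11.9 in Python 3.11.15 (2000 variable genes, 30 principal components, 15 neighbours, Leiden resolution 0.8, seed 0), with all 13 mitochondrially encoded genes left out of the variable genes and of the per-cell scaling. The 27 clusters were named from 23 marker sets with 263 names, of which 220 were found. Naming rules and merged classes were chosen with the clusters in view. Clusters with hepatocyte markers and those of another class were called mixed and left out of the classes (97, 181 and 49 cells).

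UMIs were summed per library and class. CPM carry exact 95% Poisson intervals, shares exact binomial (Clopper-Pearson) intervals and ratios exact conditional binomial intervals, all for counting error only. With 1 library per group there is no test. A gene entered a comparison with 20 or more UMIs in the 2 libraries together, and was called when its ratio reached 1.5 in either direction and the interval left out 1. The computation was tested on simulated data. Of 12 gene lists with 190 names, 146 names were found.

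All 10 transcripts are named in every class with at least 50 cells per library. Of the 45 pairs, the 3 with the widest spread over classes and the 3 with the widest spread over libraries are named, and from each list up to 3 called genes in hepatocyte-like cells. The 5 highest and 5 lowest genes by likeness needed 100 UMIs. The transcripts, lists and rules were chosen with earlier results of these data known. Alternatives covered doublets, cell filters, resolution, clustering, scaling, weighting and thinning to 1000 UMIs.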

Additional observations from a re-analysis of the deposited data

Results flagged for a closer look

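The summed share of the 10 transcripts moved in opposite directions from Con to NASH in different classes. The ratio was 0.582 in hepatocyte-like cells, but 1.35 in T cell-like, 1.64 in T or NK-like and 1.39 in macrophage-like cells, with counting intervals that exclude 1 in all 4. The difference between the classes was not tested, since each group is 1 library.

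Of the mitochondrially encoded protein genes outside the 10, ND4L gave 1065 UMIs and ND6, the one protein gene read from the other strand, gave 410 UMIs over all kept cells, above the limit that a count of 0 allows. ND4L stood at 6.59, 2.22 and 6.33 CPM in hepatocyte-like and at 35.2, 41.1 and 97.4 CPM in T cell-like cells of Con, NASH and NASH-T. ND6 stood at 4.96, 2.07 and 4.00 CPM and at 7.65, 7.86 and 14.7 CPM.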

How the results depend on the processing

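No paired analysis was possible because each group is 1 library and carries no replicate to pair or leave out. Leaving out the shallow hepatocyte-like cluster, the highest hepatocyte-like cell of each library, cells above 1% and cells above 5% was chosen after seeing the data, and all but the first remove high values by construction.

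The NASH to Con ratio of hepatocyte-like cells stayed below 1 in all 17 alternatives (0.574 to 0.719): thinned 0.638, size factors 0.634, mean over cells 0.678, shared clusters weighted equally 0.719, no shallow cluster 0.674, without the highest cells 0.647, without cells above 5% 0.688 and above 1% 0.660. The members called lower were then 4 without the shallow cluster, against 10.7% of genes, and 3 without cells above 5%. NASH-T to Con was 0.993 with each library clustered on its own and 0.996 over shared clusters. It was above 1 when thinned (1.05), with size factors (1.03), as a mean over cells (1.11) and without the highest cells or those above 5% (1.08 each). NASH-T to NASH was 1.72 with each library clustered on its own, 1.39 over shared clusters, 1.43 without the shallow cluster, 1.57 without cells above 5% and 1.49 without those above 1%. Then 5 members were called higher without the shallow cluster, against 7.1% of genes, and 5 without cells above 1%.

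In T cell-like cells every ratio kept its direction. NASH to Con was 1.30 with at least 500 genes and 1000 UMIs, 1.30 thinned, 1.39 over shared clusters and 1.12 without cells above 1%, with 1 member called under the stricter filter and 0 without cells above 1%. NASH-T to Con was 2.5 under the stricter filter, 2.54 thinned, 2.87 as a mean over cells, 2.38 over shared clusters, 2.41 without cells above 5% and 1.43 without those above 1%, then with 4 called. NASH-T to NASH was 2.08 as a mean over cells, 1.71 over shared clusters, 1.81 without cells above 5% and 1.28 without those above 1%, then with 1 called. In T or NK-like cells NASH-T to NASH ran from 1.07 to 1.68 over 13 alternatives. In B cell-like cells NASH to Con was 0.971 under the stricter filter and 0.956 thinned, and NASH-T to NASH was 0.872 without cells above 1%. In macrophage-like cells the 4 transcripts higher in NASH than in Con became 1 with doublets kept and 1 without cells above 1%, and the 4 higher in NASH-T than in Con became 2 at resolution 1.2, 2 under the stricter filter and 1 without cells above 1%.

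The share in T cell-like relative to hepatocyte-like cells stayed above 1 throughout. In Con it was 4.53 under the stricter filter, 4.54 thinned, 4.47 as a mean over cells, 2.16 over shared clusters, 6.29 without the shallow cluster, 5.69 without the highest cells, 5.62 without cells above 5% and 3.11 without those above 1%. In NASH the same order gave 10.3, 9.27, 9.09, 4.18 and 12.6, then 11.8 without the highest cells and 5.27 without cells above 1%. In NASH-T it was 12.8 with doublets kept, 12.9 with each library clustered on its own, 11.9 under the stricter filter, 11.0 thinned, 11.6 as a mean over cells, 5.15 over shared clusters, 17.2 without the shallow cluster, 14.0 without the highest cells, 12.6 without cells above 5% and 4.52 without those above 1%. Where a value moved, the cause was not tested beyond what the alternative leaves out.

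UMIs per kilobase of coding length were not run, since no lengths were used here. Member counts were not computed for the mean over cells, for shared clusters weighted equally or for the sum over all 13 genes. The share of all genes called was computed for the main classes, the shallow cluster and hepatocyte-like cells without it. Member counts with cells regrouped, left out or scaled in other ways have no such share beside them. The T or NK-like class has no value with doublets kept or with each library clustered on its own, and the ratio of T cell-like to hepatocyte-like cells none with size factors. Counting genes with 1 UMI or more moved the share of genes called from 11.2% to 8.78% (hepatocyte-like, NASH lower than Con). Depth limits ATP6 and ND5 most: in B cell-like cells ATP6 had 4, 11 and 20 UMIs. Differences between goats cannot be told apart from those between pools.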
